A study of Homo sapiens with 4 samples.

Results

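The genes described here are the nuclear genes of the mitochondrial ribosome and of the respiratory chain, 168 of the 22984 sense gene features that the nascent RNA tables list. They were taken by symbol prefix, with MRPL and MRPS for the mitochondrial ribosome (78 genes) and NDUFA, NDUFB, NDUFC, NDUFS, NDUFV, UQCR, COX4 to COX8 and ATP5 for the respiratory chain (90 genes), wherever a feature had at least 300 counted bases. A read-through feature, NDUFC2-KCTD14, was the 1 row with such a prefix below that length. The rule itself uses no measured level, though it was set with earlier results of these data known. The cells were Karpas 299, an established human T lymphoma line (anaplastic large cell, ALK-positive) with CD30 on its surface. New RNA was labelled with bromouridine during the last 30 minutes of each 3 h exposure, captured with an antibody and sequenced (Bru-seq), so a level here is the amount of newly made RNA and not the amount of messenger present. The study was made in 2 experiments with 4 libraries in all. In the drug experiment, cells received SM-164, a synthetic antagonist of the inhibitor of apoptosis proteins, against the solvent DMSO. No source used here gives its dose. In the receptor experiment, cells lay on CD30L+ CHO cells, Chinese hamster ovary cells that display the CD30 ligand, against plain CHO cells. Each condition was done once, without replicates, and no p-value is given for any difference. The intervals cover counting error only.

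Mitochondrial ribosomes make the few respiratory chain subunits that mitochondrial DNA encodes, while all proteins of that ribosome and most subunits of the chain are encoded in the nucleus, made in the cytosol and imported. Complex I takes electrons from NADH, complex III passes them to cytochrome c, complex IV hands them to oxygen, and complex V uses the resulting proton gradient to make ATP. The nuclear genes are housekeeping genes in nearly every cell type, and many of them are known targets of NRF1, of the ETS family factor GABP and of YY1.

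Sorted by role, 153 of the 168 genes encode structural subunits, with 49 in the large and 26 in the small ribosomal subunit, 37 in complex I, 8 in complex III, 18 in complex IV and 15 in complex V. NDUFA4 and its paralogue NDUFA4L2 were placed with complex IV, and MRPS30 and MRPS18A with the large ribosomal subunit, where their proteins are known to sit. The other 15 share a prefix without encoding a subunit. Among them are the assembly factors NDUFAF1 to NDUFAF4, the supercomplex factor COX7A2L, MRPS36, which is known as a component of the oxoglutarate dehydrogenase complex, and COX4NB, which belongs to a membrane protein complex of the endoplasmic reticulum. A further 6 are pseudogenes or intronless copies (MRPL42P5, MRPL45P2, ATP5EP2, UQCRBP1, UQCRHL and ATP5L2), and reads from them and from their parent genes cannot be told apart with certainty. Leaving all 15 out changed none of the group medians or counts of genes at 2-fold given below beyond its tolerance.

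The promoters of the ribosome and of the chain held the motifs of known regulators in differing shares, given here as a description without a test. RefSeq promoter windows, from 250 bases before to 50 bases after the start in build GRCh38.p14, were at hand for 140 of the 168 genes and were searched on both strands. The YY1 motif, AAGATGGC, lay in 29.4% of 68 mitochondrial ribosome windows and 13.9% of 72 respiratory chain windows, against 6.92% of the windows of all genes with an RPKM (reads scaled to counted length and library size) of at least 0.5 in the DMSO library and 3.03% of all promoter windows. The ETS family motif, CCGGAAG, lay in 41.2% of the ribosome windows and 26.4% of the chain windows, against 24.0% of the expressed genes' windows and 10.7% of all windows. The consensus motif of NRF1 had the opposite order, with 10.3% of the ribosome windows and 19.4% of the chain windows against 14.2% of the expressed genes' windows. The Sp family motif, GGGCGG, lay in 61.8% and 56.9% of the ribosome and chain windows, against 70.3% of the expressed genes' windows. A match is a run of letters and not a measured binding site.

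**Figure D1:**
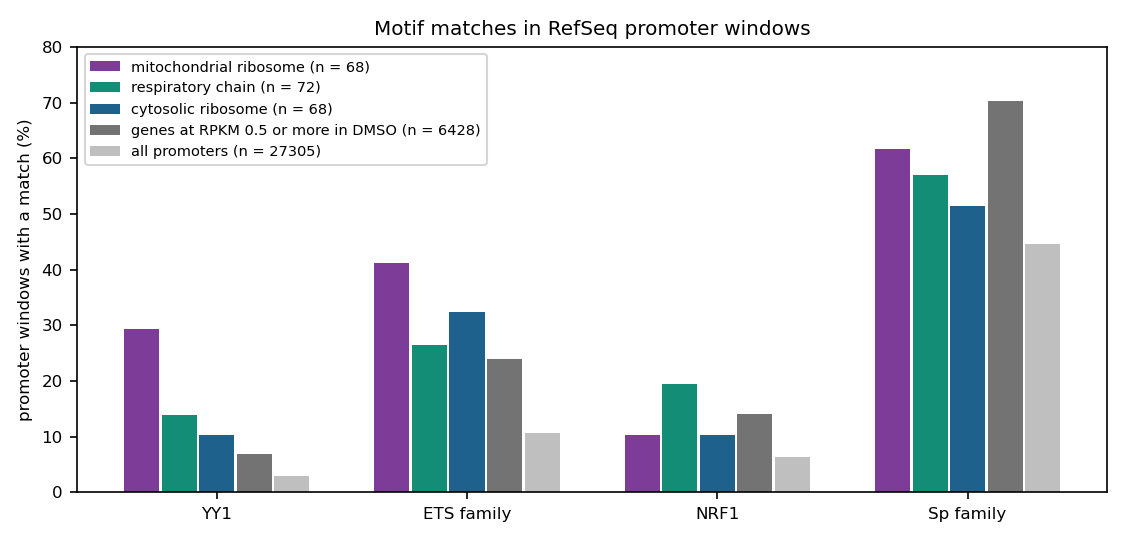
Share of RefSeq promoter windows (y axis, percent) that hold each motif (x axis), for the mitochondrial ribosome, the respiratory chain, the cytosolic ribosome, genes with an RPKM of at least 0.5 in the DMSO library and all promoters. The YY1 and ETS bars are highest for the mitochondrial ribosome, and the NRF1 bar is highest for the respiratory chain.

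Much of the YY1 signal sat in the first bases that are transcribed, on the coding strand. A sense AAGATGGC lay within the first 50 bases of 15 of 68 mitochondrial ribosome genes (22.1%) and 8 of 72 respiratory chain genes (11.1%), against 4.41% of cytosolic ribosomal protein genes and 4.20% of expressed genes. The sequences below are the first 30 bases from the RefSeq start of 8 such genes, 5 of the ribosome and 3 of complex I, and are shown so that the shared letters can be seen. Capitals mark the motif.
MRPL51 (chr12:6493233-6493262, minus strand): acagctgcctgggtaaggcccAAGATGGCt
MRPL46 (chr15:88467359-88467388, minus strand): gagaacgaAAGATGGCggcgcccgtaaggc
MRPS18A (chr6:43687762-43687791, minus strand): aggtttttgAAGATGGCggccctcaaggct
MRPS30 (chr5:44808947-44808976, plus strand): ggaatcgcgggcaAAGATGGCggcggccag
MRPS27 (chr5:72320211-72320240, minus strand): ccttttggtacgctccAAGATGGCtgcctc
NDUFA9 (chr12:4649114-4649143, plus strand): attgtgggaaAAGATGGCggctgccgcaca
NDUFA7 (chr19:8321346-8321375, minus strand): agtatcgcggacggAAGATGGCgtccgcca
NDUFS4 (chr5:53560639-53560668, plus strand): atcctggcgtttgcctgcagcAAGATGGCg
The motif began at position 9 of the MRPL46 transcript and at position 22 of the MRPL51 and NDUFS4 transcripts, with the other 5 in between.

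Some of the members named below had differing upstream letters. The next sequences, also RefSeq in GRCh38.p14, run 5′ to 3′ up to the start, without any base that RefSeq assigns to a gene. COX8A is shown because its log2 ratio on CD30L+ CHO cells was the lowest of the members tested, though others were lower by read ratio. COX5B is shown because it had the highest level of all members in the drug experiment. NDUFV2 is shown because it was above its control, by little, in both treatments. The MRPL47 stretch is the 147-base space between MRPL47 and NDUFB5, a ribosomal and a complex I gene that are transcribed away from each other. Capitals mark matches to the motifs above on either strand.
COX8A (chr11:63974370-63974619, plus strand): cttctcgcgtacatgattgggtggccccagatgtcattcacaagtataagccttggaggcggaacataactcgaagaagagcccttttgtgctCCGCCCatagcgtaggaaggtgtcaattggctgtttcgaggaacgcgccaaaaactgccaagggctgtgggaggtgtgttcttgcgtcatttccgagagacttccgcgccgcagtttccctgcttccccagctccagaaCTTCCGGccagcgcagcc
COX5B (chr2:97645812-97646061, plus strand): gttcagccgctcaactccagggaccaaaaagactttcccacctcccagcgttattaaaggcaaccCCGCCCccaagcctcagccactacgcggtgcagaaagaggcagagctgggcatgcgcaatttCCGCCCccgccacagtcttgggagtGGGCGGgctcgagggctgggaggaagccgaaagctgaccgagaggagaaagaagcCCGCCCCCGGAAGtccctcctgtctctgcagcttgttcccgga
NDUFV2 (chr18:9102449-9102698, plus strand): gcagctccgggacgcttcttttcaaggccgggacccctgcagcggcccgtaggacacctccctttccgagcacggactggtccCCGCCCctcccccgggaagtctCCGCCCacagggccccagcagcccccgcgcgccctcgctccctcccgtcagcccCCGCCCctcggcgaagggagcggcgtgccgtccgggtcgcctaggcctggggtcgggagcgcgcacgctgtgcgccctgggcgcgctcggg
MRPL47 (chr3:179604647-179604793, minus strand): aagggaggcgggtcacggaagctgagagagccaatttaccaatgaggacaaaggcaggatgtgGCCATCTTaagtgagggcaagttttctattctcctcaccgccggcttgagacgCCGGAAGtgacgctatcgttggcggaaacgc
COX8A held an ETS match that began 18 bases before the start and an Sp match that began 157 bases before it. COX5B held 4 Sp matches and an ETS match that began 37 bases before the start, the last Sp match directly followed by the ETS match. NDUFV2 held 3 Sp matches only. The space between MRPL47 and NDUFB5 held a YY1 match and an ETS match, which began 92 and 39 bases before the MRPL47 start.

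Library totals were 26217590 reads with SM-164, 45535365 on CD30L+ CHO cells, 45885631 on CHO cells and 31030477 with DMSO. Each was derived as a median, over well-counted features, of the coverage signal over the RPKM. Markers known for anaplastic large cell lymphoma were at an RPKM of at least 0.5 for 7 of 8 genes in every library. The gene below that level was ALK in each of them. B cell, epithelial and fibroblast markers were at that level for 0 of 5 genes each in every library. Myeloid markers reached it for 1 of 5 genes with SM-164, 1 on CD30L+ CHO cells, 3 on CHO cells and 2 with DMSO. Summed RPKM was 78.9, 52.4, 38.2 and 67.6 for the lymphoma markers and 1.60, 1.37, 2.21 and 1.64 for the myeloid markers with SM-164, on CD30L+ CHO, on CHO and with DMSO. Their part in the results was not tested.

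Nascent RNA from most of these genes was readily measured, at levels well below those of the cytosolic ribosomal protein genes. An RPKM of at least 0.5 was reached by 72, 63, 70 and 73 of the 78 mitochondrial ribosome genes with SM-164, on CD30L+ CHO cells, on CHO cells and with DMSO, and by 77, 71, 76 and 78 of the 90 respiratory chain genes in the same order. The median RPKM of the ribosome group was 1.58 with SM-164 and 1.70 with DMSO, and 1.39 on CD30L+ CHO cells against 1.67 on CHO cells. That of the chain was 1.57 with SM-164 and 1.79 with DMSO, and 1.25 on CD30L+ CHO cells against 1.63 on CHO cells. The cytosolic ribosomal protein genes had medians of 14.7 with SM-164, 8.34 on CD30L+ CHO cells, 9.76 on CHO cells and 18.9 with DMSO. Their 85 genes took 0.592%, 0.352%, 0.415% and 0.768% of all reads in those libraries, while the mitochondrial ribosome genes took 0.166%, 0.174%, 0.196% and 0.172% and the chain genes 0.199%, 0.203%, 0.223% and 0.215%.

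**Figure D2:**
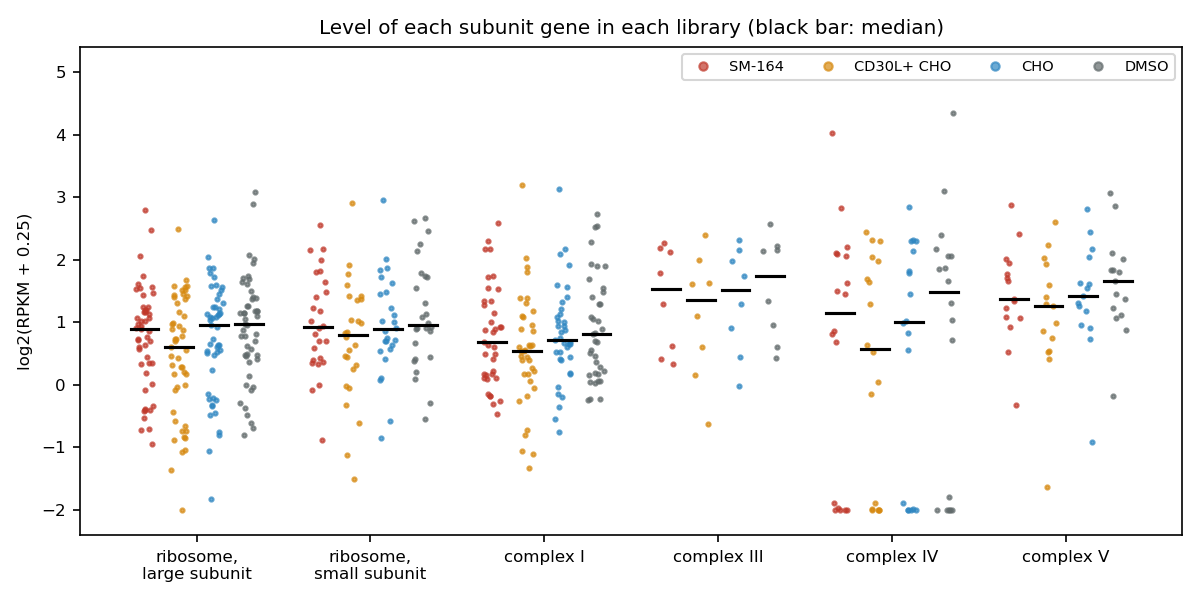
Level of each structural subunit gene, as log2(RPKM + 0.25) on the y axis, by role on the x axis; each point is 1 gene in 1 library, coloured SM-164, CD30L+ CHO, CHO and DMSO from left to right, and black bars are medians over genes. The points at the bottom of complex IV are paralogues with almost no reads, and the highest point is COX5B.

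The most transcribed ribosomal gene differed between the experiments. MRPL51, a large subunit protein, had 5.34 RPKM with SM-164 and 8.25 with DMSO, and 2.48 on CD30L+ CHO cells against 3.07 on CHO cells. MRPS21, of the small subunit, had 5.61 RPKM with SM-164 and 5.88 with DMSO, and 7.27 on CD30L+ CHO cells against 7.46 on CHO cells. MRPL51 thus stood first in the DMSO library and MRPS21 in both co-culture libraries, while MRPL9, another large subunit gene, was first with SM-164 at 6.68 RPKM. In the chain, COX5B, a nuclear subunit of complex IV, was highest with SM-164 at 16.0 RPKM and with DMSO at 20.0 RPKM, but had 5.18 RPKM on CD30L+ CHO cells against 6.90 on CHO cells. Only 505 bases of its feature, 23.6% of the span, were counted. NDUFV2, an iron-sulphur subunit of the NADH-oxidising arm of complex I, was highest in the co-cultures, at 8.89 RPKM on CD30L+ CHO cells against 8.47 on CHO cells, and had 5.79 RPKM with SM-164 and 5.52 with DMSO.

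Complex IV and complex V contain subunits for which the genome holds tissue-specific paralogues, and the transcribed copy was the same in all 4 libraries. COX4I1, the common form of the largest nuclear complex IV subunit, had 4.37 RPKM with SM-164 and 5.00 with DMSO, and 4.66 on CD30L+ CHO cells against 4.67 on CHO cells. Its lung-type paralogue COX4I2 had at most 1 read in any library. COX6A1, the liver-type form, had 4.04, 2.89, 3.28 and 4.28 RPKM with SM-164, on CD30L+ CHO cells, on CHO cells and with DMSO, while its heart and muscle form COX6A2 had 0 reads in each. With 0 reads, a count of up to 3 per library cannot be told from none. The same was seen for COX7A2 over the muscle form COX7A1, for COX8A over COX8C, for COX7B over COX7B2 and for NDUFA4 over the hypoxia-associated NDUFA4L2. COX7A1 and COX8C had 0 reads throughout, and COX7B2 had 0, 14, 7 and 1 reads over 174406 counted bases in the same library order.

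COX6B was the exception. COX6B2, known as the testis form, was transcribed at 1.56 RPKM with SM-164 and 2.22 with DMSO, and at 0.652 on CD30L+ CHO cells against 1.23 on CHO cells. The common form COX6B1 had 1.5 RPKM with SM-164 and 1.81 with DMSO, and 1.31 on CD30L+ CHO cells against 1.73 on CHO cells. COX6B2 was therefore at about the level of COX6B1 in the drug experiment and below it in the co-cultures. The 3 genes for the identical mature c subunit of complex V kept the order ATP5G3, ATP5G2, ATP5G1 in each library, with ATP5G3 at 3.77 RPKM with SM-164, 3.81 on CD30L+ CHO cells, 4.26 on CHO cells and 4.05 with DMSO, and ATP5G1 at 1.19, 1.08, 1.41 and 1.58 RPKM in the same order.

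**Figure D3:**
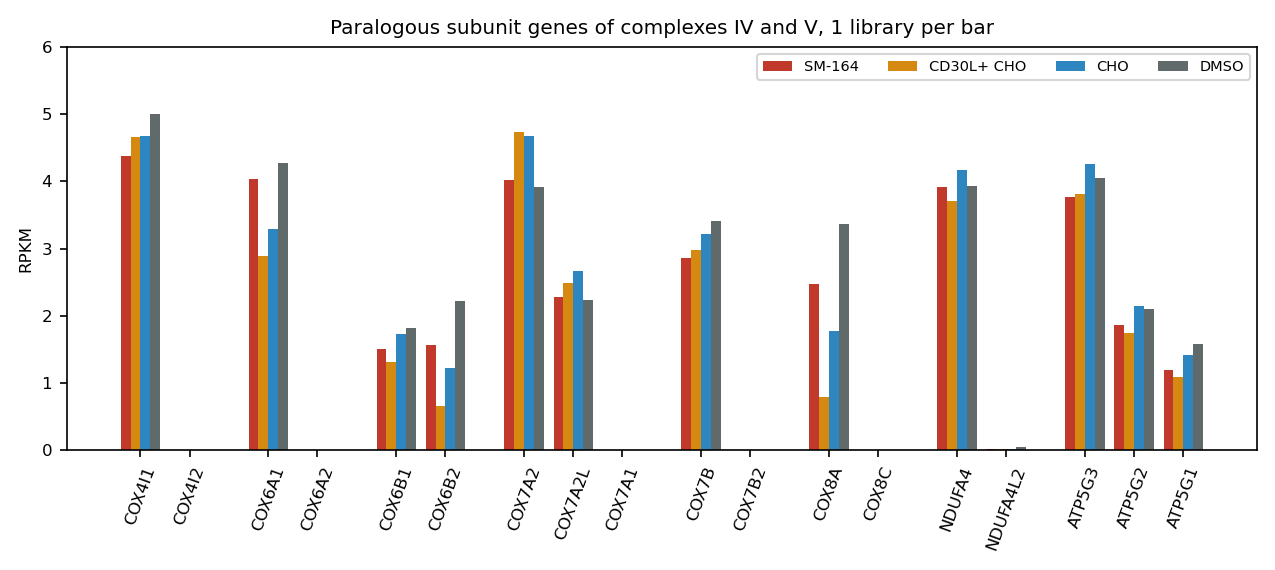
RPKM (y axis) of paralogous subunit genes of complexes IV and V (x axis), with 1 bar per library in the order SM-164, CD30L+ CHO, CHO and DMSO. In most sets a single copy carries nearly all the signal. The exceptions are COX6B1 and COX6B2, which both have bars, and the ATP5G genes, which all do. The supercomplex factor COX7A2L also has bars beside COX7A2, at 2.28, 2.49, 2.66 and 2.23 RPKM in that library order.

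With SM-164, transcription of these genes stayed within a narrow band around that of the DMSO cells. Ratios are log2 of (RPKM + 0.25) in one library over the same in the other, taken for genes whose mean RPKM over both libraries was at least 0.5. This left 151 of the 168 members with SM-164, of which 73 were ribosomal. The other 17, which are 5 ribosomal and 12 chain genes, fell under that minimum. No member was 2-fold higher and none was 2-fold lower, where 0.19% and 0.0634% of the 7881 genes tested were. The median log2 ratio was -0.12 for the mitochondrial ribosome and -0.14 for the respiratory chain, beside -0.042 for all genes tested. In bulk libraries, fewer cells that make an RNA and less of it made per cell cannot be told apart. At the lesser mark of 1.5-fold, 3 members were lower and 0 higher, where 1.10% and 0.787% of all genes were. Below 0 were 125 of the 151 members, beside 63.3% of all genes.

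The 3 members past 1.5-fold with SM-164 were all ribosomal by prefix and all had few counted bases, 1458 at most. MRPS9, a small subunit gene, had 2.53 RPKM with SM-164 and 4.14 with DMSO (log2 ratio -0.66, read ratio 0.614 with a 95% interval of 0.475 to 0.789). Only 2.35% of its span was counted. MRPL51 had a log2 ratio of -0.61 (read ratio 0.648, 0.532 to 0.787). The pseudogene MRPL42P5, at -0.65, had 20 reads with SM-164 and 40 with DMSO, and its interval of 0.328 to 1.04 includes a ratio of 1. In the chain the lowest was NDUFB10, an accessory subunit of complex I, at -0.57, with 4.23 RPKM under SM-164 and 6.39 under DMSO. NDUFB11 and NDUFAF3 followed at -0.49 each and COX6B2 at -0.45, and then ATP5B, the catalytic beta subunit of complex V, at -0.45, with 5.09 RPKM under SM-164 and 7.02 under DMSO. At the upper end MRPL14 had 2.11 RPKM with SM-164 and 1.71 with DMSO, a log2 ratio of 0.27 and a read ratio of 1.24 (1.11 to 1.37). MRPS33, at 0.26, MRPL39, at 0.25, and MRPS18B, at 0.22, came next, and NDUFS3, a core subunit of complex I, led the chain at 0.18.

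CD30L+ CHO cells gave a similar picture on a wider scale. The minimum left out 28 members, 12 of the ribosome and 16 of the chain. By read ratio some of these were past 2-fold lower. Among them were ATP5D at 0.252 (0.112 to 0.513), MRPL28 at 0.416 (0.268 to 0.631) and MRPL12 at 0.478 (0.342 to 0.663). In the other direction COX7B2 stood at 2.02 (0.761 to 5.90). On the log2(RPKM + 0.25) scale, of the 140 members tested, 66 of them ribosomal, 0 were 2-fold higher and 0 were 2-fold lower. Of the 7661 genes tested, 0.979% and 0.731% were. The median log2 ratio was -0.24 for the mitochondrial ribosome and -0.20 for the chain, beside -0.12 for all genes. Members at least 1.5-fold lower numbered 11 and at least 1.5-fold higher 0, where 4.99% and 2.62% of all genes were. Of the 140, 127 lay below 0, beside 72.0% of all genes, and 104 lay below the median of all genes. Scaling by TMM (trimmed mean of M values) moved the median of all genes by 0.17, so that the group medians became -0.063 and -0.012, beside 0.058 for all genes. The direction relative to all genes was therefore kept, while the size relative to 0 was set by the scaling.

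Among the members tested, those furthest below control by log2 ratio on CD30L+ CHO cells were genes of differing complexes. COX8A, a small complex IV subunit, had 0.786 RPKM on CD30L+ CHO cells against 1.78 on CHO cells, a log2 ratio of -0.97 and a read ratio of 0.440 (0.327 to 0.587). MRPS34, a small ribosomal subunit protein, had 0.547 RPKM on CD30L+ CHO cells against 1.30 on CHO cells, at -0.96 (0.422, 0.268 to 0.650). Both lay just inside the 2-fold limit on the log2(RPKM + 0.25) scale, which understates changes at low levels. ATP5I, a complex V subunit, had 1.19 RPKM on CD30L+ CHO cells against 2.42 on CHO cells (-0.89, read ratio 0.492), and NDUFB10 had 0.911 and 1.86 RPKM on CD30L+ CHO and CHO cells (-0.86, read ratio 0.489). COX6B2, at -0.71, stood lower than COX6B1, at -0.35. Others past 1.5-fold were MRPL36, MRPL24, MRPL17, MRPS26, NDUFV1, which carries the flavin site of complex I, and UQCR11 of complex III, at -0.61 to -0.78.

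MRPL39, a large subunit protein, was the furthest above control on CD30L+ CHO cells. It had 2.73 RPKM on CD30L+ CHO cells against 1.93 on CHO cells, a log2 ratio of 0.45 and a read ratio of 1.41 (1.33 to 1.5) from 2711 and 1937 reads. With SM-164 it had 1.27 RPKM against 1.03 with DMSO (read ratio 1.23, 1.11 to 1.37). MRPS24 of the small subunit had 1.79 RPKM on CD30L+ CHO cells against 1.39 on CHO cells (0.32, read ratio 1.29, 1.06 to 1.57), but 1.25 with SM-164 and 1.57 with DMSO. Of the 139 members tested in both experiments, 106 lay below 0 in both, beside 50.6% of 7210 genes, and 5 above 0 in both, beside 16.5%. The 5 were MRPL39, MRPL47, MRPS33, COX7A2 and NDUFV2. COX7A2 had log2 ratios of 0.039 with SM-164 and 0.015 on CD30L+ CHO cells, and NDUFV2 had 0.066 and 0.068, all close to 0. Across the 139 members the ratios of the 2 experiments, which share no library, had a Pearson r of 0.43 and a Spearman rho of 0.42, beside 0.57 and 0.40 over 7210 genes. Gene length is common to both and goes with each.

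**Figure D4:**
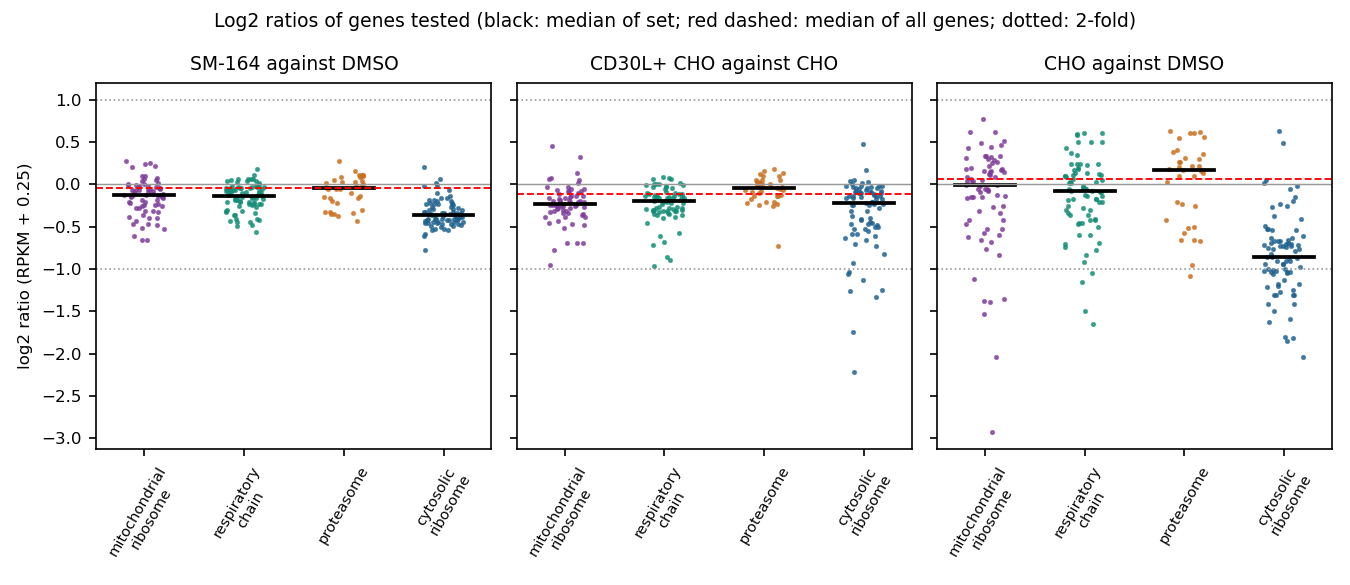
Log2 ratios (y axis) of the genes tested in the mitochondrial ribosome, respiratory chain, proteasome and cytosolic ribosome sets (x axis), for SM-164 against DMSO, CD30L+ CHO against CHO and CHO against DMSO; black bars are set medians, the red dashed line is the median of all genes and dotted lines mark 2-fold. Both mitochondrial sets lie just under the red line in the first 2 panels, and the cytosolic ribosome lies lower in the first and in the CHO against DMSO panel.

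The mitochondrial ribosome and the respiratory chain were close to each other in both experiments. The difference of their medians, ribosome minus chain, was 0.012 with SM-164 and -0.040 on CD30L+ CHO cells, and the first turned to -0.028 when no minimum RPKM was set. By summed reads scaled to library totals, the ribosome stood at 0.964 of DMSO with SM-164 (0.951 to 0.976) and the chain at 0.926 (0.915 to 0.936). On CD30L+ CHO cells the ribosome stood at 0.890 of CHO (0.881 to 0.898) and the chain at 0.909 (0.901 to 0.917). By role the median log2 ratios with SM-164 were -0.12 for the large and -0.092 for the small ribosomal subunit, -0.11 for complex I, -0.16 for complex III, -0.21 for complex IV and -0.14 for complex V. On CD30L+ CHO cells they were -0.25, -0.18, -0.17, -0.24, -0.23 and -0.21 in that order. Complex V had the lowest summed read ratio in both, at 0.882 with SM-164 (0.859 to 0.906) and 0.854 on CD30L+ CHO cells (0.835 to 0.873).

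Cytosolic ribosomal protein genes and proteasome genes were set beside the mitochondrial genes. With SM-164, 81 cytosolic ribosomal protein genes had a median log2 ratio of -0.36, lower than both mitochondrial groups, and 36 proteasome genes had -0.046. On CD30L+ CHO cells the medians were -0.22, between those of the mitochondrial groups, and -0.047. The cytosolic ribosome had a wider lower end there. Of its 81 genes, 8 were 2-fold lower (9.88%) and 0 higher, beside 0.731% and 0.979% of all genes, and the lowest stood at -2.22. Taken relative to genes of like counted length, the mitochondrial ribosome had medians of -0.0093 with SM-164 and -0.032 on CD30L+ CHO cells, the chain -0.0082 and -0.022, and the cytosolic ribosome -0.18 and -0.0070. With SM-164, relative to genes of like length, the median of the cytosolic ribosome was thus -0.18 where it had been -0.36, and both mitochondrial groups lay near the level of other genes of their length.

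Of counted length and promoter GC content, length went more with a member's ratio. The members have few counted bases, with a median of 7258.5 counted bases for the ribosome and 8400.5 for the chain, where the median was 24829 for all genes tested with SM-164. Across members the Spearman rho between log2 ratio and counted bases was 0.59 with SM-164 (n = 151) and 0.41 on CD30L+ CHO cells (n = 140), beside 0.44 and 0.29 across all genes. Genes are not independent replicates, and shorter genes also have fewer reads. With SM-164 the ribosomal members under 3000 bases had a median of -0.28 and those of at least 24000 bases -0.043, beside -0.28 and -0.0052 for all genes of those lengths. On CD30L+ CHO cells the ribosomal medians in those classes were -0.39 and -0.15, beside -0.28 and -0.071 for all genes. The chain had -0.31 and -0.023 with SM-164 and -0.37 and -0.017 on CD30L+ CHO cells. GC content of the promoter window went less with the ratio, with a Pearson r of -0.14 with SM-164 (n = 129) and -0.22 on CD30L+ CHO cells (n = 119).

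**Figure D5:**
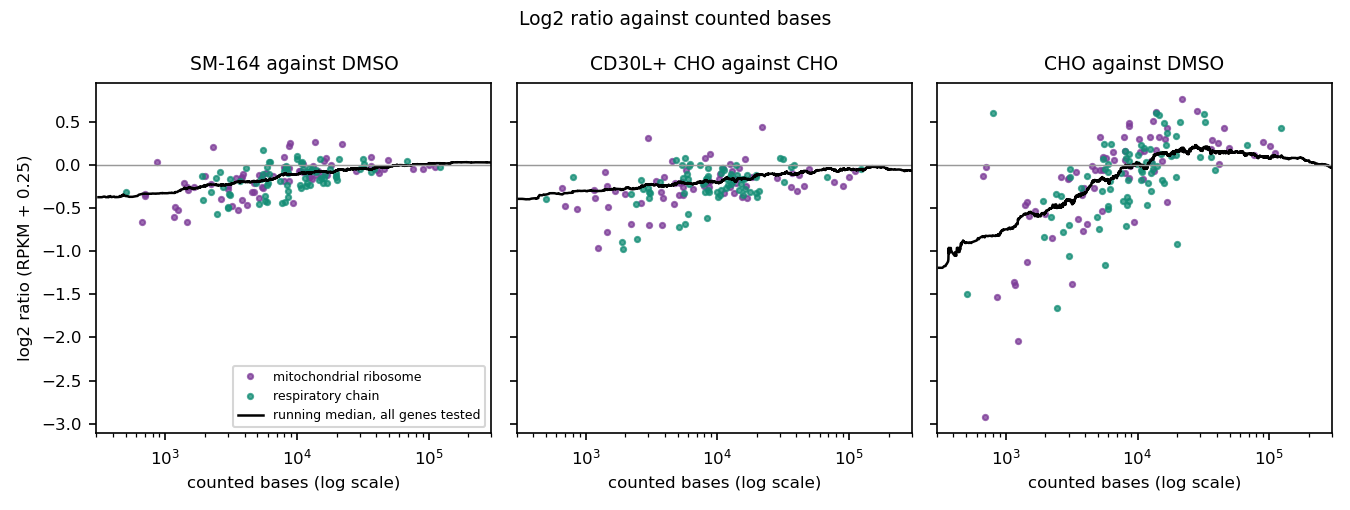
Log2 ratio (y axis) of each member against its counted bases (x axis, log scale), in purple for the mitochondrial ribosome and green for the respiratory chain, with the running median of all genes tested as a black line. Members follow the line in the first 2 panels, and the spread of short members is widest for CHO against DMSO.

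The plain CHO and the DMSO libraries give a measure of how far the experiments lie apart, and this comparison shares a control with each of the others. Co-culture and experiment cannot be told apart in it. The reads were aligned to hg19, and whether any in the co-culture libraries came from the hamster cells was not tested. Of 150 members tested, 11 were 2-fold lower on CHO cells and 0 were 2-fold higher, where 4.52% and 0.879% of 8081 genes were. The median log2 ratio was -0.014 for the ribosome and -0.078 for the chain, beside 0.059 for all genes, and both medians turned positive, to 0.18 and 0.029, among members of at least 6000 counted bases. All 11 had under 6000 counted bases. Of all genes of 300 to under 3000 bases, 32.4% were 2-fold lower as well. At 1.5-fold, 25 members were lower and 6 higher, where 10.7% and 7.07% of all genes were, and 83 members lay below 0, beside 43.8% of all genes.

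MRPL41, a large subunit protein, was the extreme of the CHO and DMSO comparison, with 0 reads on CD30L+ CHO cells against 1 on CHO cells, against 26 with SM-164 and 41 with DMSO. The CHO library had 0.0165 of the DMSO read level (0.000408 to 0.0972). MRPS34 had 1.30 RPKM on CHO cells and 6.13 with DMSO (log2 ratio -2.04, read ratio 0.211, 0.16 to 0.275), and NDUFB10 1.86 on CHO cells and 6.39 with DMSO (-1.65). COX5B stood at -1.5, MRPL53 at -1.53, MRPL34 at -1.40, MRPL28 at -1.38 and MRPL51 at -1.36, followed by NDUFV1, MRPS9 and the complex I assembly gene NDUFAF3 at -1.16 to -1.05. Above 0 the furthest were MRPL39 at 0.77, with 1.93 RPKM on CHO cells and 1.03 with DMSO, MRPL14 and MRPL22 at 0.62, ATP5S at 0.61, the intronless copy ATP5L2 at 0.60 from 25 reads on CHO cells and 9 with DMSO (interval 0.848 to 4.57), and NDUFV2 at 0.60. By summed reads the ribosome stood at 1.13 of DMSO (1.12 to 1.15) and complex I at 1.14 (1.13 to 1.16), whereas complex IV stood at 0.892 (0.867 to 0.918) and complex V at 0.873 (0.853 to 0.893). The cytosolic ribosome was at 0.540 (0.537 to 0.543), with 29 of 81 genes 2-fold lower and a median of -0.86, and its median was -0.57 relative to genes of like length.

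Many of these genes start head to head with another gene. A gene on the other strand began within 1000 bases upstream for 46 of the 168 members (27.4%) and for 9.29% of all genes in the hg19 coordinates of the tables. Among genes with an RPKM of at least 0.5 in the DMSO library the shares were 27.8% and 15.6%. Some of the pairs joined members to each other, namely MRPL46 with MRPS11 at 51 bases, MRPL47 with NDUFB5 at 141 bases and COX4I1 with COX4NB at 25 bases. MRPL46 and MRPS11 had log2 ratios of -0.25 and -0.32 on CD30L+ CHO cells and of 0.097 and -0.076 with SM-164. MRPL47 had 2.61 RPKM on CD30L+ CHO cells against 2.48 on CHO cells, and 2.05 with SM-164 and 1.97 with DMSO, a little above its control in both, while its partner NDUFB5 had 1.23 and 1.35 RPKM on CD30L+ CHO and CHO cells and 1.36 and 1.51 with SM-164 and DMSO, a little below.

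A shared start region did not go with a shared ratio in every pair. NDUFA7, a complex I subunit, starts 104 bases from the cytosolic ribosomal gene RPS28. NDUFA7 had 0.635 RPKM on CD30L+ CHO cells against 0.891 on CHO cells (log2 ratio -0.37), whereas RPS28 had 1.64 and 8.54 RPKM on CD30L+ CHO and CHO cells (-2.22). NDUFS1, the largest subunit of complex I, starts 75 bases from the elongation factor gene EEF1B2 and had -0.075 with SM-164, while EEF1B2 had -0.46. Counted bases differed within these pairs, at 10097 for NDUFA7 and 897 for RPS28, and at 36441 for NDUFS1 and 3134 for EEF1B2. Length goes with the ratio across all genes, and its part in these pairs was not tested. Over the 26 pairs with both genes tested, Pearson r was 0.10 with SM-164 and 0.36 on CD30L+ CHO cells, and 18 and 19 pairs had the same sign. Below 0 were 82.8% of members and 63.3% of all genes with SM-164, and 90.7% and 72.0% on CD30L+ CHO cells. Many pairs therefore share a sign whether or not they share a start region, and these counts say little about the pairs. In the lists of ratios by motif, ribosomal members with a YY1 match had a median of -0.054 with SM-164 (n = 18) and those without -0.13 (n = 45). With SM-164 the chain had -0.040 (n = 10) with a match and -0.15 (n = 56) without. On CD30L+ CHO cells the ribosomal medians were -0.25 (n = 17) with a match and -0.21 (n = 40) without. Those of the chain were -0.078 (n = 8) and -0.27 (n = 54). Counted length was not compared between genes with and without a match.

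Lists of genes that act beside these members were read against the share of all genes at 2-fold. Of 22 genes listed under mitochondrial translation, factors and ribosomal proteins outside the prefixes, 0 were 2-fold changed with SM-164. On CD30L+ CHO cells 1 was 2-fold lower. Of all genes tested, 0.0634% were 2-fold lower with SM-164 and 0.731% on CD30L+ CHO cells. The gene of the list was AURKAIP1, with 0.296 RPKM on CD30L+ CHO cells against 0.905 on CHO cells (log2 ratio -1.08). Its product is a protein of the small mitochondrial ribosomal subunit, but its symbol lies outside the prefixes, so it is not among the members counted above. Among 12 mitochondrial aminoacyl-tRNA synthetase genes tested on CD30L+ CHO cells, CARS2, which charges the cysteine tRNA, was the one at 2-fold, with 0.736 RPKM on CD30L+ CHO cells against 1.79 on CHO cells (-1.05). On the log2(RPKM + 0.25) scale, 0 of the genes tested in the lists of mitochondrial transcription, complex II and cytochrome c, assembly, the citric acid cycle and protein import were at 2-fold in either experiment. By read ratio on CD30L+ CHO cells, however, CYC1, the cytochrome c1 gene of complex III, stood at 0.460 (0.325 to 0.643). POLRMT, the mitochondrial RNA polymerase, stood at 0.392 (0.294 to 0.518) and the import gene TIMM13 at 0.389 (0.240 to 0.614), both below the RPKM minimum. Import genes had the lowest list median on CD30L+ CHO cells, -0.30 over 24 genes, and TOMM34, a cytosolic chaperone partner of import, was its highest member at 0.47.

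The list of nuclear regulators holds NRF1, YY1 and the subunits of GABP, but no factor of the Sp family. GABPB1, a subunit of GABP that activates transcription, had 2.65 RPKM with SM-164 and 1.96 with DMSO (log2 ratio 0.39, read ratio 1.35). On CD30L+ CHO cells it had 3.48 RPKM against 1.91 on CHO cells (0.79, read ratio 1.82). GABPB2, the other GABPB gene of the list, went the other way. It had 0.621 RPKM with SM-164 and 0.729 with DMSO (read ratio 0.851, 0.775 to 0.934). On CD30L+ CHO cells it was below the RPKM minimum, with 0.409 RPKM against 0.465 on CHO cells (read ratio 0.879, 0.802 to 0.962). The DNA-binding subunit GABPA had 1.05 RPKM with SM-164 and 1.16 with DMSO (-0.13). It had 1.32 RPKM on CD30L+ CHO cells against 1.30 on CHO cells (0.020). NRF1 had log2 ratios of 0.052 and 0.026, and YY1 of 0.090 and -0.0052, with SM-164 and on CD30L+ CHO cells. MYC, which is known to raise expression of mitochondrial genes, had 4.90 RPKM with SM-164 and 6.67 with DMSO (-0.43), and 2.92 on CD30L+ CHO cells against 6.74 on CHO cells (-1.14), the one tested regulator at 2-fold on the log2(RPKM + 0.25) scale. By read ratio, HCFC1, a cofactor of transcription, stood at 0.482 on CD30L+ CHO cells (0.424 to 0.547), and the coactivator gene PPARGC1B, below the RPKM minimum, at 0.404 (0.359 to 0.454). Whether GABPB1 or MYC had a part in the members' ratios was not tested.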

How the data were processed

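Bru-labelled nascent RNA of Karpas 299 cells was sequenced in 4 libraries, 1 per condition. Per the submitters' processing notes, hg19 was used with TopHat 1.4.1 along with Bowtie 0.12.8, CASAVA 1.8.2, and also bedtools 2.16.2. For each sense or antisense feature the authors deposited an estimated count of reads, a coverage signal and an RPKM value; between 60.6% and 70.8% of the nonzero counts of a library are whole within 0.001. Beyond the library totals, which were derived from the signal and the RPKM, the signal was not used.

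Sense features of at least 300 counted bases were kept, and of features sharing a symbol the one with the most counted bases (186 dropped). From the RPKM, log2 ratios with a pseudocount of 0.25 were computed for all genes whose mean RPKM over both libraries was at least 0.5, called at 2-fold, with exact Clopper-Pearson 95% intervals of the read ratio. With 1 library per condition no test across libraries was possible. The length trend is a running median over 301 genes ordered by counted bases; TMM factors came from edgeR 4.0.16. Scripts were tested on simulated data. Members named are the 6 highest and 6 lowest of each group per comparison, those at 2-fold, the 5 highest and 3 lowest levels in DMSO and the paralogue sets. Divergent pairs, motif examples and the regulators GABPA, GABPB2, NRF1 and YY1 were chosen after their values were seen. The members and lists were chosen with earlier results of these data known. Promoters come from RefSeq (GRCh38.p14). Of the alternatives tried, the promoter GC trend and the limit of 6000 bases were chosen after seeing the data. Python 3.11.15, pandas 2.3.3, scipy 1.17.1 and R 4.3.3 were used.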

Additional observations from a re-analysis of the deposited data

Results flagged for a closer look

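The antisense feature of UQCRQ, a small subunit gene of complex III, differed between the CHO and DMSO libraries, the controls of the 2 experiments, in a part of the tables that the comparisons above leave aside. It had 104 reads (1.02 RPKM) on CHO cells and 17 reads (0.254 RPKM) with DMSO, a read ratio of 4.14 (95% counting interval 2.46 to 7.37). On CD30L+ CHO cells it had 100 reads (0.992 RPKM), a read ratio of 0.969 to CHO cells (0.729 to 1.29). The sense feature went the other way, with 3.67 RPKM on CHO cells and 5.71 with DMSO. Antisense features were listed where their mean RPKM over both libraries was at least 0.5. On CHO cells against DMSO those of MRPS14 and NDUFA2 stood at read ratios of 2.12 (1.81 to 2.48) and 2.20 (1.38 to 3.63). Those of MRPS22, NDUFB10 and MRPS18C stood at 1.26, 1.25 and 1.00. UQCRQ and NDUFA2, the latter at 0.321 RPKM with DMSO, passed the minimum only through their level on CHO cells. The listing therefore favours high ratios, and the other features are no support for UQCRQ. The share over all antisense features was not counted. Experiment and co-culture cannot be told apart here.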

How the results depend on the processing

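No paired analysis was possible because each condition has a single library. With SM-164 the group medians moved to -0.0093 (ribosome) and -0.0082 (chain) after the length trend was subtracted and to -0.044 and -0.075 among members of at least 6000 counted bases, the difference of the medians turned to -0.028 without a minimum RPKM, and 3 members were lower at 1.5-fold. On CD30L+ CHO cells the ribosome median moved to -0.16 with a pseudocount of 1, -0.12 after centring on all genes, -0.063 by TMM, -0.032 less the length trend, -0.12 less the promoter GC trend and -0.17 at 6000 bases or more. The chain median moved to -0.083, -0.012, -0.022 and -0.12 under centring, TMM, length and GC. Members lower numbered 2 with a pseudocount of 0.1, 1 without a minimum RPKM and 11 at 1.5-fold. For CHO against DMSO the ribosome median turned to 0.011 at 1000 bases or more, 0.099 less the length trend, 0.045 without poorly counted members and 0.18 at 6000 bases or more, where the chain turned to 0.029. Members lower numbered 7 with a pseudocount of 1, 4 less the length trend, 0 at 6000 bases or more and 25 at 1.5-fold, and members higher 1 less the length trend and 6 at 1.5-fold. Other causes than the construction of each setting were not tested. Limits are the single library per condition, depths from 26217590 to 45885631 reads, and few reads on short members such as MRPL41 (41 at most).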
